A study of Mus musculus with 6 samples.

Results

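Glutathione transferases, glutathione peroxidases and peroxiredoxins are the enzymes that conjugate glutathione to reactive compounds and reduce peroxides, and their transcripts were followed in injured mouse kidney with and without renal congestion. The group was defined by gene symbol: the alpha, mu, pi, theta, omega, kappa and zeta classes of Gst, the microsomal Mgst1 to Mgst3, the Gpx genes numbered 1 to 8 and Prdx1 to Prdx6. It held 40 of the 26971 features of the deposited count table, and 35 of these 40 had at least 10 counts in at least 3 libraries and were tested among 14398 genes. Polyadenylated RNA from kidney cortex of male C57BL/6 mice had been sequenced 1 day after surgery. The congested group (3 libraries, congested 1 to 3) had ischaemia-reperfusion injury (IRI), a halt and return of the kidney's blood supply, together with a treatment abbreviated IVCC. The IRI group (3 libraries, IRI 1 to 3) had IRI, with no IVCC in its titles. It is titled CLK_IRI, an abbreviation the labels do not expand, as they do not expand IVCC. No uninjured kidney was analysed here, so each difference is between kinds of injured kidney. The labels do not give the ages, and they do not say that libraries came from separate animals, so the spread behind the p-values is that of these libraries and may be technical. In tissue RNA, fewer cells of a type and less RNA per cell cannot be told apart.

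Cytosolic glutathione transferases join the thiol of glutathione to electrophiles such as aldehydes from oxidised lipids, and the microsomal family does so in membranes. Glutathione peroxidases spend glutathione to reduce hydrogen peroxide and lipid hydroperoxides, and peroxiredoxins reduce peroxides through a cysteine that thioredoxin usually recharges. In the kidney the proximal tubule expresses many of these enzymes and makes the secreted peroxidase Gpx3 found in blood plasma, and Gpx4, the peroxidase that reduces lipid hydroperoxides within membranes, restrains ferroptosis, a form of cell death driven by lipid oxidation. Several transferases and Prdx1 are known targets of the transcription factor NRF2.

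The peroxidases differ from each other at the residue that meets the peroxide. The coding stretches around it, from the GENCODE annotation of GRCm38, are given here because they show which members depend on selenium. Capitals mark the active-site codon. TGA is read as selenocysteine, as annotated, in Gpx1 (codon 47 of 201), Gpx2 (codon 40 of 190), Gpx3 (codon 73 of 226) and Gpx4 (codon 129 of 253). TGT and TGC encode cysteine at the position aligned to the selenocysteine of Gpx3 in Gpx6 (codon 73 of 221), Gpx7 (codon 56 of 186) and Gpx8 (codon 79 of 209).
Gpx1: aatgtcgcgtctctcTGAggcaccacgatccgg
Gpx2: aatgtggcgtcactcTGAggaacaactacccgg
Gpx3: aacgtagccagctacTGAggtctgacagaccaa
Gpx4: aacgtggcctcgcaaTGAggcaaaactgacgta
Gpx6: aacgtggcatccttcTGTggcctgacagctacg
Gpx7: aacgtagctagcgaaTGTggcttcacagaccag
Gpx8: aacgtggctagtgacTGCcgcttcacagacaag

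CPM below are counts scaled to the library size after TMM normalization. Total counts were 11376642, 12856600 and 11980864 in congested 1, 2 and 3, and 14350425, 11976816 and 10865860 in IRI 1, 2 and 3. Libraries with the replicate number 1 stood apart in both groups: the first principal component held 68.1% of the variance of 1000 genes and placed congested 1 at -42.3 and IRI 1 at -39.5, against 10.1 to 32.9 for the other 4 libraries. Number 1 also held the highest summed level of the 5 tubular injury markers (Havcr1, Lcn2, Spp1, Krt20 and Clu), at 64238, 17989 and 10712 CPM in congested 1, 2 and 3 and 46847, 15754 and 6145 CPM in IRI 1, 2 and 3. Markers of the collecting duct, the thick ascending limb and the proximal tubule were detected in every library of this labelled kidney cortex, and no lymphocyte marker of the 5 looked for passed the filter. Differences are given over all libraries and, for the members that the text follows most closely, also between libraries of equal number. Whether a number marks a shared day, litter or animal is not given in the sources used here.

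The 40 genes held 3.32%, 3.26% and 3.28% of all counts in congested 1, 2 and 3, and 3.67%, 3.27% and 2.88% in IRI 1, 2 and 3. The groups overlapped, and the IRI libraries spanned the wider range. Gpx3 alone supplied most of this, at 70.2%, 76.3% and 75.0% of the counts of the 40 genes in the congested libraries and 64.1%, 68.6% and 74.0% in the IRI libraries. It ranked 3 among all tested genes by mean CPM. On the scale of CPM per kilobase of exon, which allows levels of different genes to be compared, Gpx3 averaged 12940 in congested kidney and 12904 in IRI kidney. The next level per kilobase was far lower. Prdx5 averaged 627 in congested and 1016 in IRI kidney, and Prdx1 718 in congested and 910 in IRI kidney. Gstm1 averaged 488 in congested and 541 in IRI kidney, Gpx4 363 in congested and 530 in IRI kidney, and Gsta2 362 in congested and 407 in IRI kidney. Those 5 genes cover a mitochondrial and peroxisomal peroxiredoxin, a cytosolic one, a mu class transferase, the membrane lipid peroxidase and an alpha class transferase. Gstm6 had the lowest level over all libraries among the tested members with an annotated length, at 1.55 CPM per kilobase in congested and 1.45 in IRI kidney. Gstm3, Gstt4, Gsto2, Mgst2 and Gpx2 did not pass the filter, and their highest level in any library was 1.54 CPM, reached by Gsto2 in IRI 2. Gpx2, the peroxidase known from intestinal epithelium, lay between 0 and 0.586 CPM.

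**Figure D1:**
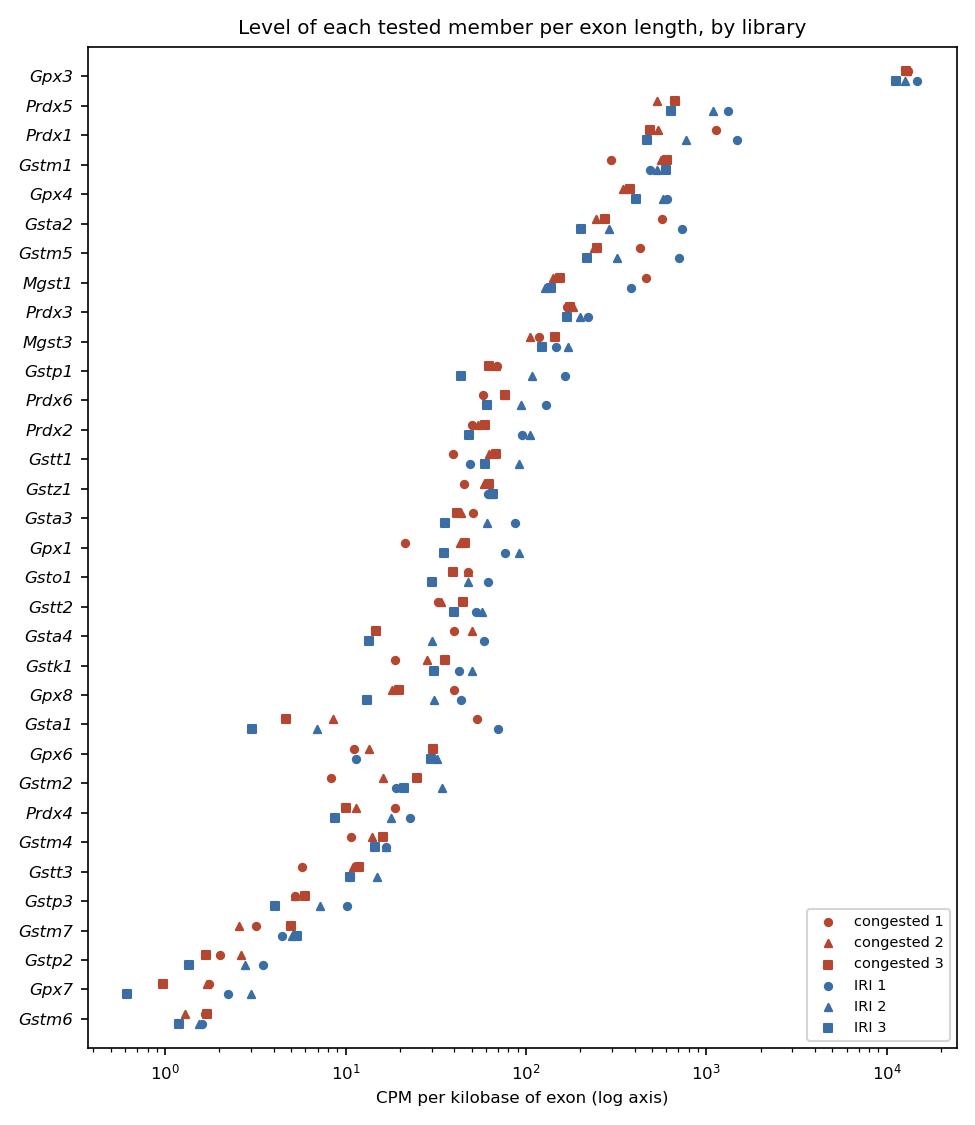
Level of each tested member in each library, in CPM per kilobase of exon on a log axis, with congested libraries in red and IRI libraries in blue, and circles, triangles and squares for replicate numbers 1, 2 and 3. Gpx3, at 12940 in congested and 12904 in IRI kidney on average, stands apart from every other member; Gsta5 and Gsta13 are left out because the annotation gave no length for their symbols.

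No member differed between congested IRI and IRI kidney at an adjusted p under 0.05 in edgeR's quasi-likelihood test, and neither did any of the 14398 genes (0 called, 0%). At an unadjusted p under 0.05 edgeR gave 0 of 35 members against 288 genes (2.0%), DESeq2 gave 3 members (Gpx4, Prdx5 and Gpx1) and 355 genes, and limma-voom gave 0 members and 289 genes. The smallest unadjusted p of a member was 0.0596, for Gpx4, and the smallest adjusted p was 0.935. The members' differences nevertheless lay mostly on the same side: 31 of 35 (88.6%) were below 0, that is, lower in congested kidney, against 50.3% of all genes. Their median log2 difference was -0.34, against -0.004 over all genes. The exceptions were Gsta4 (0.04), Gstm6 (0.10), Mgst1 (0.22) and Gpx3 (0.004).

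Within the replicate numbers the members' median took both signs, a difference that was not tested. Between congested 1 and IRI 1, 33 of 35 members were below 0, with a median of -0.48, and between congested 2 and IRI 2, 29 of 35 were, with a median of -0.47. Between congested 3 and IRI 3 only 3 of 35 were below 0, and the median was 0.21. The medians over all genes were 0.005, 0.008 and -0.002 in the same order. Just 3 members were lower in the congested library of all 3 numbers, Gstm7, Gstz1 and Gpx4 (8.57%, against 13.1% of all genes), and Mgst1 alone was higher in all 3 (2.86%, against 13.1%). Without IRI 1 the median over all libraries was -0.13 with 21 of 35 members below 0, and without IRI 3 it was -0.56 with 35 of 35 below 0.

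Markers of cell types and of tubular injury, none of them called between the groups, are given beside this shift. All 5 markers of the S3 segment of the proximal tubule, which is the segment most hurt by ischaemia, were below 0, with a median of -0.57 and a summed level of 2068 to 4561 CPM in congested and 3386 to 5752 CPM in IRI libraries. They were below 0 within all 3 numbers (medians -0.72, -0.31 and -0.43). Those of the thick ascending limb (5 of 5 below 0, median -0.37) had medians of 0.33, -0.90 and -0.29 within numbers 1, 2 and 3. Those of the distal convoluted and connecting tubule (4 of 4, -0.47) had -0.99, -0.21 and -0.05, and those of the collecting duct (6 of 6 tested, -0.49) had -0.68, -0.99 and -0.02. The 5 tested neutrophil markers had the widest difference of all lists, with 5 of 5 above 0 and a median of 1.73 (1.80, 1.38 and 0.57 within numbers). Each had an unadjusted p under 0.05 in edgeR's fit with the replicate block, as had 1015 of the 14398 genes. Above 0 were also 4 of 5 macrophage markers (median 0.29), 3 of 5 of endothelium (0.37), 5 of 5 of fibroblasts and mural cells (0.38), 4 of 4 of podocytes (0.09) and 6 of 7 of the early proximal tubule (0.07). Within numbers 1, 2 and 3 the medians were 0.74, 0.23 and -0.02 for macrophages and 0.49, 0.46 and -0.16 for endothelium. They were 0.04, 0.27 and 0.73 for fibroblasts and mural cells, and 0.01, 0.45 and -0.17 for podocytes. Early proximal tubule had -0.06, 0.36 and 0.09. Red-cell markers (4 of 5 tested below 0, median -0.20) had -0.39, -0.24 and 0.47. Tubular injury markers (4 of 5 below 0, median -0.09) had -0.38, 0.04 and 0.88. An unadjusted p under 0.05 in the block fit was also found for 3 of 6 collecting duct and 2 of 4 distal tubule markers. It was found for 2 of 5 S3 markers too, all of these lower in congested kidney. The same p was reached, with higher levels, by 2 of 5 fibroblast and mural markers. The part of these markers in the members' differences was not tested.

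**Figure D2:**
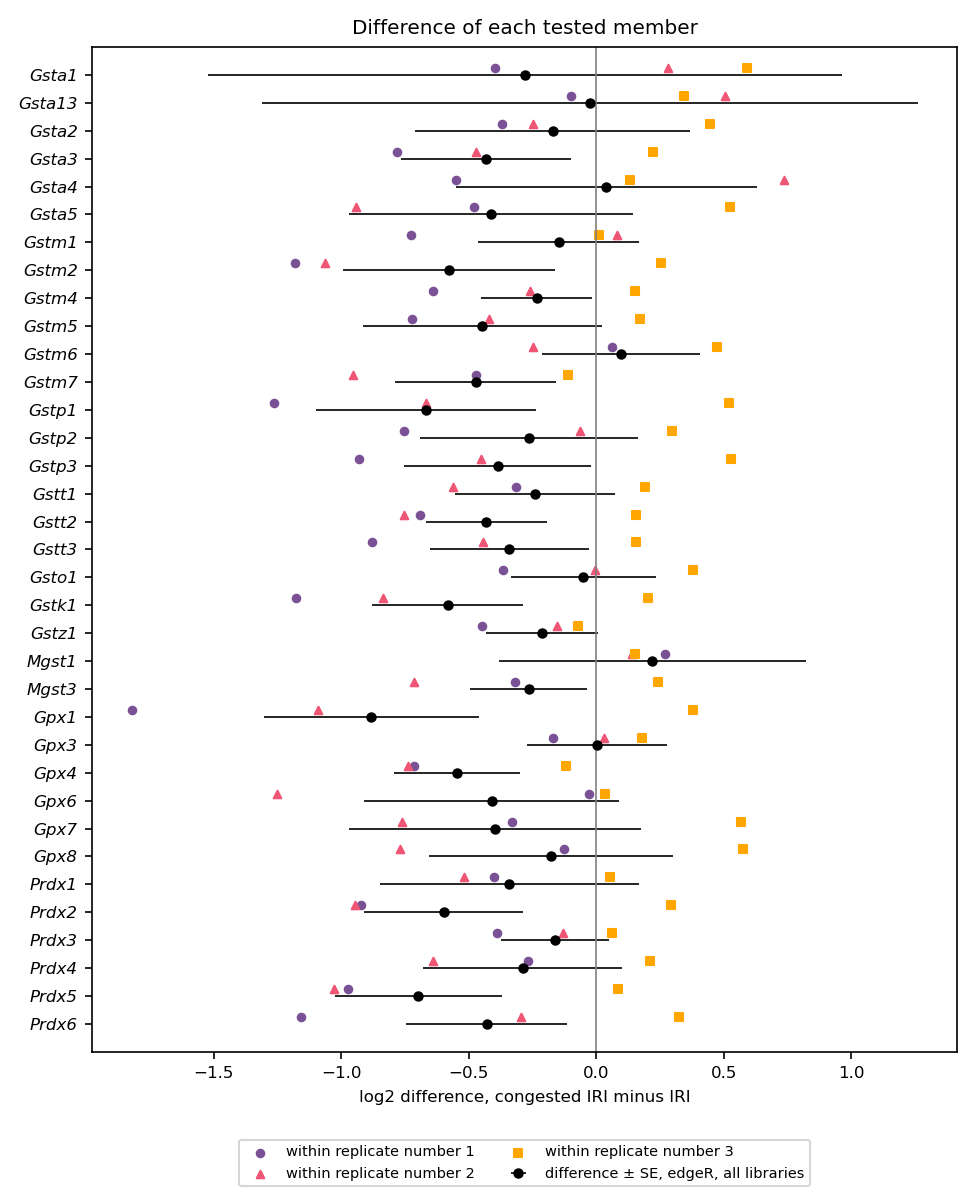
log2 difference of each tested member, congested IRI minus IRI. Black points are edgeR's estimates over all 6 libraries with bars of 1 standard error, and coloured marks are the differences within replicate numbers 1, 2 and 3; most marks of numbers 1 and 2 lie left of 0 and most of number 3 right of it, with medians of -0.48, -0.47 and 0.21.

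Transcript length moved with these differences. The longest annotated transcript of the 33 members with a length had a median of 1182 bases, against 3273 over all tested genes, and 27 of the 33 fell in the group of shortest genes when all were split by length into 5 groups (79 to 1827 bases). The 2753 genes of that group had medians of -0.50, -0.51 and 0.12 within numbers 1, 2 and 3 and of -0.33 over all libraries. The group of longest genes (5165 to 93092 bases), which held 0 members, had medians of 0.47, 0.53 and -0.11, and 0.27 over all libraries. After each library's trend in length and GC had been removed, 20 of 35 members were below 0 and the median of the 35 was -0.03. Gsta5 and Gsta13 had no length and were left uncorrected, and both were among those 20. Within numbers 1, 2 and 3 the medians were then -0.19, -0.13 and 0.12, with 21, 20 and 6 of 35 below 0.

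**Figure D3:**
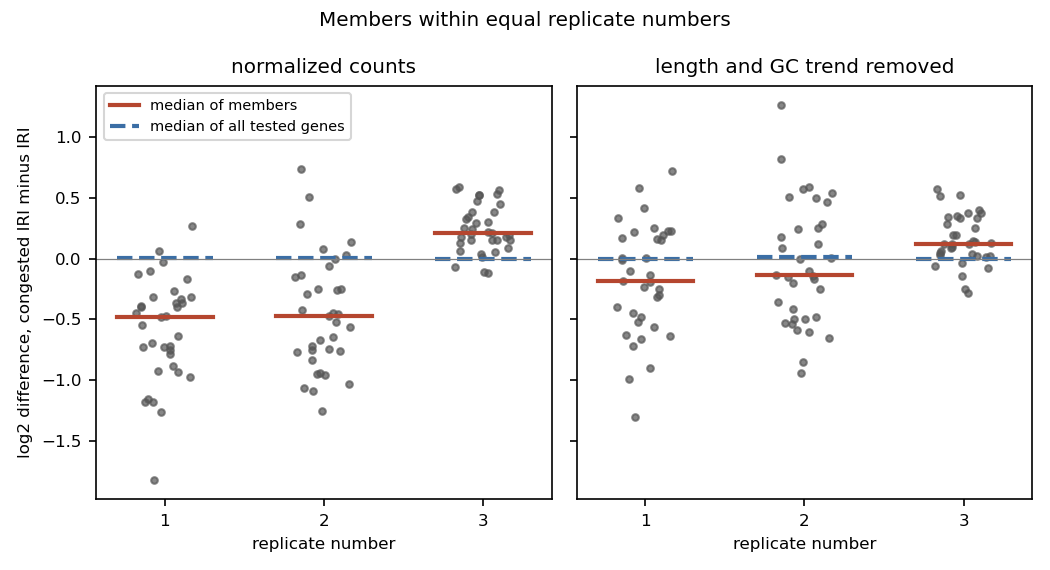
log2 difference of each tested member (grey points), congested IRI minus IRI, between libraries of equal replicate number, before (left) and after (right) removal of a per-library trend in length and GC. The median of the members (solid line) lies at -0.48, -0.47 and 0.21 before removal and at -0.19, -0.13 and 0.12 after it, while the median of all genes (dashed line) stays near 0. Gsta5 and Gsta13, without a length, are left uncorrected on the right.

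Among the 6 tested glutathione peroxidases 5 were below 0, with a median of -0.40, and no difference passed the test. Gpx3, the secreted plasma peroxidase (GRCm38 chromosome 11, 54902453 to 54910377, plus strand), had 23828, 23413 and 23139 CPM in congested 1, 2 and 3, against 26839, 22901 and 20443 CPM in IRI 1, 2 and 3. The congested libraries lay inside the range of the IRI libraries, and the means were 23460 ± 347 CPM in congested and 23394 ± 3226 CPM in IRI kidney (SD, n = 3 each). Its log2 difference was 0.004 with a standard error of 0.27.

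Gpx4 (chromosome 10, 80047166 to 80056439, plus strand) was the 1 member whose groups did not overlap. It had 633, 595 and 650 CPM in congested 1, 2 and 3, against 1040, 994 and 706 CPM in IRI 1, 2 and 3. Every congested library lay below every IRI library, with IRI 3 the nearest to them. Groups were separated in this direction for 3.10% of all genes, and in the other direction for 3.38% of all genes and 0 members. The means were 626 ± 27.8 CPM in congested and 913 ± 181 CPM in IRI kidney (SD, n = 3 each), a log2 difference of -0.55 (standard error 0.25, edgeR adjusted p = 0.935). Within numbers 1, 2 and 3 it was -0.72, -0.74 and -0.12. In an edgeR fit with the replicate block the difference was -0.53 (standard error 0.21, edgeR adjusted p = 0.578), and with the length and GC trend removed it was -0.19. Under the block only Gpx4 and Prdx5 of the 35 members (5.71%) had an unadjusted p under 0.05 in edgeR's test. In either direction 1015 of the 14398 genes had such a p. Both members were lower in congested kidney, a direction in which 2.99% of all genes had such a p.

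Gpx1, a cytosolic peroxidase, had the largest difference of all members and is named here after its values were seen. It had 31.0, 62.1 and 65.8 CPM in congested 1, 2 and 3, against 110, 133 and 50.6 CPM in IRI 1, 2 and 3. IRI 3 lay below congested 2 and 3, so the groups overlapped. The log2 difference was -0.88 (standard error 0.42, edgeR adjusted p = 0.935), with -1.82, -1.09 and 0.38 within numbers 1, 2 and 3. Gpx1 and Prdx2 are also abundant proteins of red cells. Of the 5 red-cell markers tested, 4 of them globin genes with near-identical copies, 4 were below 0 and Alas2 was at 0.75 on the log2 scale. Hbb-bs, the globin gene with the highest level, had 87.0, 79.4 and 57.4 CPM in congested 1, 2 and 3, against 114, 98.1 and 45.7 CPM in IRI 1, 2 and 3. Number 3 was the lowest library of both groups. The part of red cells in either gene's level was not tested.

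The remaining peroxidases carry cysteine in place of selenocysteine. Gpx6 had 15.3, 18.4 and 41.8 CPM in congested 1, 2 and 3, against 15.6, 44.0 and 40.8 CPM in IRI 1, 2 and 3. Numbers 1 and 3 differed more inside each group than the group means did. Gpx8, which resides in the endoplasmic reticulum, had 42.1, 19.0 and 20.7 CPM in congested libraries, against 46.0, 32.6 and 13.9 CPM in IRI libraries. Gpx7, of the same compartment, reached at most 3.84 CPM.

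All 6 peroxiredoxins were below 0, with a median of -0.39, and none passed the test. Their summed level was 5594, 3608 and 3752 CPM in congested 1, 2 and 3, against 8646, 5785 and 3495 CPM in IRI 1, 2 and 3. Within number 3 the congested library was the higher. Prdx1, the main cytosolic 2-cysteine peroxiredoxin (chromosome 4, 116685544 to 116700822, plus strand), had 3432, 1640 and 1485 CPM in congested 1, 2 and 3, against 4528, 2349 and 1432 CPM in IRI 1, 2 and 3. Number 1 was the highest library of both groups. Its log2 difference was -0.34 with a standard error of 0.51.

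Prdx5, a peroxiredoxin of mitochondria and peroxisomes (chromosome 19, 6906697 to 6910106, minus strand), had 1443, 1143 and 1437 CPM in congested 1, 2 and 3, against 2833, 2334 and 1355 CPM in IRI 1, 2 and 3. IRI 1 and 2 lay above all congested libraries and IRI 3 among them. The means were 1341 ± 172 CPM in congested and 2174 ± 752 CPM in IRI kidney (SD, n = 3 each), a log2 difference of -0.70 (standard error 0.33, edgeR adjusted p = 0.935). Within numbers 1, 2 and 3 it was -0.97, -1.03 and 0.08. In the edgeR fit with the replicate block it was -0.64 (edgeR adjusted p = 0.578), and with the length and GC trend removed it was -0.48. Trmt112 overlaps it on the opposite strand and shares 32.4% of its transcript. The library kit kept strand, but the strand setting of the counting is not given, so reads of the pair may not be told apart.

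Prdx2, the abundant peroxiredoxin of red cells and cytosol, had 153, 166 and 182 CPM in congested 1, 2 and 3, against 289, 319 and 148 CPM in IRI 1, 2 and 3, again with IRI 3 below the congested libraries. The log2 difference was -0.60 (standard error 0.31), and 20.5% of its transcript is shared with genes on the opposite strand, Junb foremost. Prdx6, the 1-cysteine member that also repairs oxidised phospholipids, had 279, 367 and 368 CPM in congested 1, 2 and 3, against 623, 450 and 294 CPM in IRI 1, 2 and 3, and a log2 difference of -0.43 (standard error 0.32). Prdx2 and Prdx6 are named after their values were seen. Prdx3, the mitochondrial member, had 248, 268 and 259 CPM in congested libraries, against 325, 294 and 248 CPM in IRI libraries. Prdx4, the form of the endoplasmic reticulum, had 39.6, 24.0 and 21.3 CPM in congested libraries, against 47.7, 37.6 and 18.4 CPM in IRI libraries.

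Of the 6 alpha class transferases, which handle lipid peroxidation products in proximal tubule and liver, 5 were below 0 with a median of -0.23. The class turned with the replicate block, under which 3 of 6 were below 0 and the median was 0.020, and its medians within numbers 1, 2 and 3 were -0.44, 0.016 and 0.40. Gsta2, the highest by CPM, had 665, 287 and 325 CPM in congested 1, 2 and 3, against 858, 342 and 238 CPM in IRI 1, 2 and 3. Number 1 was again the highest in both groups, and the log2 difference was -0.17 (standard error 0.54). Gsta3 had the smallest p of the class, at 220, 189 and 181 CPM in congested 1, 2 and 3, against 379, 263 and 156 CPM in IRI 1, 2 and 3. Its log2 difference was -0.43 (standard error 0.33, edgeR adjusted p = 0.935) and was -0.78, -0.47 and 0.22 within numbers 1, 2 and 3. Gsta5 had 16.7, 6.45 and 8.08 CPM in congested libraries, against 23.4, 12.5 and 5.56 CPM in IRI libraries. Gsta5 and Gsta13 had no entry by symbol in the annotation, so no length or position is given.

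Of the 6 tested mu class transferases, whose genes lie side by side on chromosome 3, 5 were below 0 with a median of -0.34. Gstm1, the most abundant, had 435, 830 and 890 CPM in congested 1, 2 and 3, against 720, 785 and 883 CPM in IRI 1, 2 and 3. Congested 1 stood below the other 5 libraries, and the log2 difference was -0.15 (standard error 0.32). Gstm7 had the smallest p of the class, at 5.11, 4.10 and 8.0 CPM in congested 1, 2 and 3, against 7.15, 8.11 and 8.66 CPM in IRI 1, 2 and 3. Congested 3 overlapped the IRI range, and the log2 difference was -0.47 (standard error 0.32, edgeR adjusted p = 0.935). Gstm5 had 545, 304 and 315 CPM in congested libraries, against 901, 407 and 280 CPM in IRI libraries, and 18.8% of its transcript is shared with an opposite-strand gene, 4933431E20Rik. Gstm2 had 14.0, 27.2 and 42.1 CPM in congested libraries, against 31.9, 57.2 and 35.2 CPM in IRI libraries. Gstm4 and Gstm6 were at -0.23 and 0.10 on the log2 scale.

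All 3 pi class genes were below 0, with a median of -0.39, which was 0.072 with the length and GC trend removed. Gstp1, the main one (chromosome 19, 4035407 to 4037985, minus strand), had 106, 105 and 97.1 CPM in congested 1, 2 and 3, against 256, 167 and 67.6 CPM in IRI 1, 2 and 3. The congested libraries were close to each other and lay inside the spread of the IRI libraries. The log2 difference was -0.67 (standard error 0.43, edgeR adjusted p = 0.935), with -1.26, -0.67 and 0.52 within numbers 1, 2 and 3. Gstp1 shares 44.0% of its transcript with Gstp2 in exact runs of at least 50 bases, so counts of the pair are uncertain. Gstp2 and Gstp3 reached at most 9.22 CPM in any library.

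The theta, omega, kappa and zeta classes were each below 0. Gstt2, the leading theta gene by CPM and by p, had 136, 140 and 186 CPM in congested 1, 2 and 3, against 220, 236 and 167 CPM in IRI 1, 2 and 3, a log2 difference of -0.43 (standard error 0.24). Congested 3 lay above IRI 3, so the groups overlapped. Gstt1 and Gstt3 were at -0.24 and -0.34 on the log2 scale, and Gstt3 shares 27.9% of its transcript with Gm20441 on the same strand.

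Gsto1, an omega transferase that reduces dehydroascorbate and glutathionylated proteins, had 97.2, 96.8 and 80.0 CPM in congested 1, 2 and 3, against 125, 97.1 and 61.4 CPM in IRI 1, 2 and 3, a log2 difference of -0.05 (standard error 0.28). Gstk1, the kappa transferase of mitochondria and peroxisomes, had 27.5, 41.3 and 52.6 CPM in congested 1, 2 and 3, against 62.5, 73.8 and 45.7 CPM in IRI 1, 2 and 3. Only congested 3 reached into the IRI range, and the log2 difference was -0.58 (standard error 0.30, edgeR adjusted p = 0.935). Gstz1, the maleylacetoacetate isomerase of tyrosine breakdown, had 230, 297 and 316 CPM in congested 1, 2 and 3, against 314, 330 and 332 CPM in IRI 1, 2 and 3, a log2 difference of -0.21 (standard error 0.22). Congested 3 overlapped IRI 1 by a small margin.

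The microsomal enzymes were the subfamily with a median nearest to 0, at -0.02. Mgst1, a membrane transferase with peroxidase activity (chromosome 6, 138140316 to 138156755, plus strand), had 928, 285 and 309 CPM in congested 1, 2 and 3, against 770, 258 and 278 CPM in IRI 1, 2 and 3. The congested library was the higher within each number, by 0.27, 0.14 and 0.15 on the log2 scale, while number 1 exceeded the others far more in both groups. Over all libraries its log2 difference was 0.22 (standard error 0.60, edgeR adjusted p = 0.961). Mgst3 had 129, 115 and 159 CPM in congested 1, 2 and 3, against 161, 189 and 134 CPM in IRI 1, 2 and 3, a log2 difference of -0.27 (standard error 0.23).

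**Figure D4:**
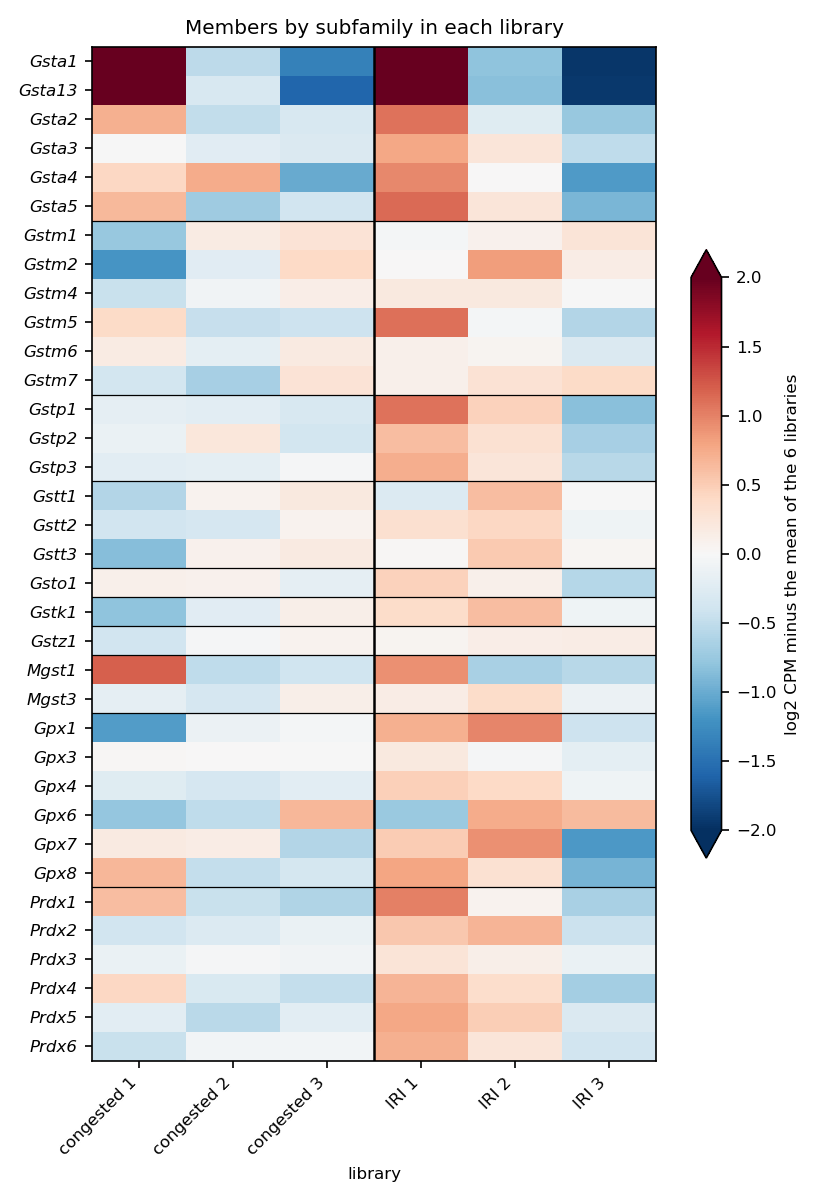
log2 CPM of each tested member minus its mean over the 6 libraries, with rows ordered by subfamily and lines between subfamilies, and congested libraries left of IRI libraries. Gsta1, Gsta13, Mgst1 and Prdx1 are high in congested 1 and IRI 1, and the colour scale ends at 2 on either side.

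The replicate numbers separated members that the groups did not. In an edgeR fit with group and number as terms, 6 of 35 members (17.1%) differed between the numbers at an adjusted p under 0.05, against 1143 of 14398 genes (7.94%). The 6 were Gsta1, Gsta2, Gsta4, Gsta13, Mgst1 and Prdx1. In all 6 the mean log2 CPM of number 1 lay above that of numbers 2 and 3. Genes called with that direction were 3.54% of all genes. The 5 tubular injury markers also differed between the numbers with number 1 above the others, Lcn2 by 2.68 and Havcr1 by 1.22 on the log2 scale. So did the 5 tested neutrophil markers, whose summed level with the untested Ly6g was 199, 15.5 and 7.22 CPM in congested 1, 2 and 3, against 65.9, 8.02 and 4.33 CPM in IRI 1, 2 and 3. In the other direction, 4 of 7 markers of the early proximal tubule, 3 of 5 of its S3 segment and 3 of 5 of the thick ascending limb differed with number 1 below the others. The same held for 4 of 6 tested markers of the collecting duct and 2 of 4 of the distal convoluted and connecting tubule. It also held for 2 of 5 of fibroblasts and mural cells and 1 of 5 of endothelium. Their part in the members' levels was not tested. Without congested 3 the count was 23 of 35 (54.5% of all genes), without IRI 3 it was 16 (36.2%) and without IRI 2 it was 10 (11.1%). Prdx1 was not called without congested 1, nor Gsta4 without congested 3 or IRI 3, nor Gsta2 and Prdx1 without IRI 1. Without both libraries of number 1 only Gsta4 remained.

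Gsta1 had 51.1, 8.13 and 4.47 CPM in congested 1, 2 and 3, against 67.3, 6.66 and 2.91 CPM in IRI 1, 2 and 3. Number 1 exceeded the mean of numbers 2 and 3 by 3.46 on the log2 scale, and edgeR's test of any difference among the 3 numbers gave an adjusted p of 0.0014. Within numbers 1, 2 and 3 congested minus IRI was -0.40, 0.28 and 0.59. Gsta13 followed the same order, with 16.2, 2.49 and 0.942 CPM in congested 1, 2 and 3, against 17.3, 1.71 and 0.707 CPM in IRI 1, 2 and 3, and had an excess of number 1 of 3.51. The excess was 1.58 for Mgst1, 1.35 for Gsta2, 1.22 for Prdx1 and 1.04 for Gsta4, and it was not tested by itself. The edgeR test of any difference among the numbers gave an adjusted p of 0.0016 for Gsta13, 0.0083 for Mgst1, 0.0273 for Gsta2, 0.0288 for Prdx1 and 0.0289 for Gsta4. Gsta4, which detoxifies 4-hydroxynonenal, was the exception in pattern, with 50.4, 63.5 and 18.7 CPM in congested 1, 2 and 3, against 73.9, 38.1 and 17.0 CPM in IRI 1, 2 and 3. Congested 2 was the highest congested library for it, and number 3 was the lowest in both groups. In the same test Gstm5 missed the threshold at an edgeR adjusted p of 0.0505.

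**Figure D5:**
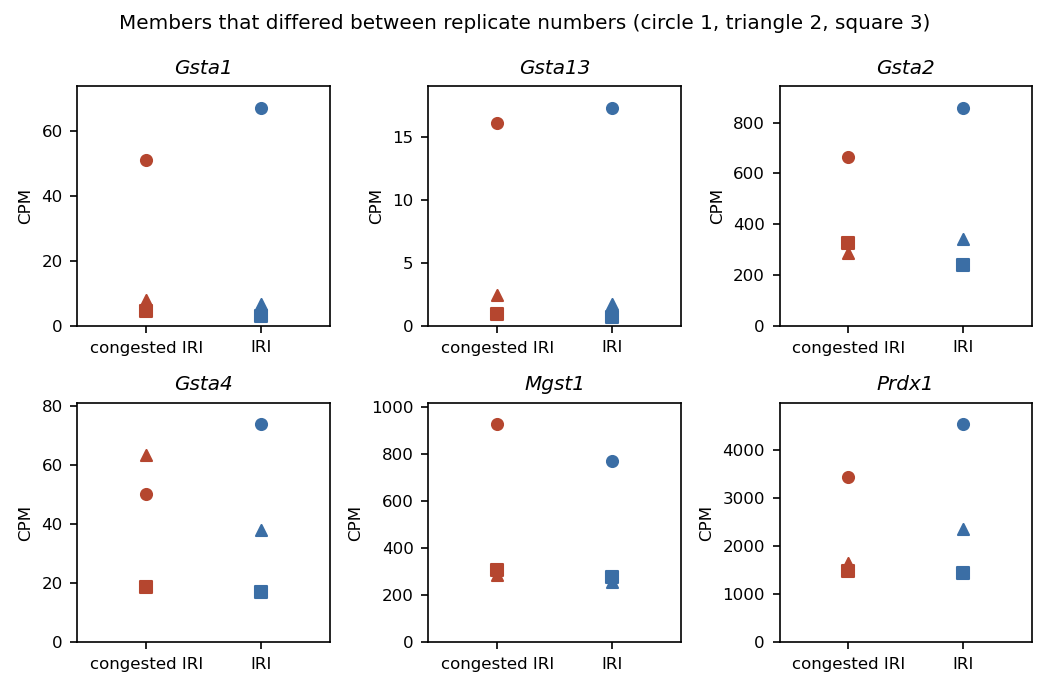
CPM of the 6 members that differed between replicate numbers, by group, each axis starting at 0, with a circle, triangle and square for numbers 1, 2 and 3. Number 1 is the highest library in both groups except for Gsta4, whose congested 2 library (63.5 CPM) lies above congested 1 (50.4 CPM).

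Because these members were high in the same libraries, a promoter is shown of each with an entry among the RefSeq promoters of GRCm38.p6. The stretch runs from 250 bases before to 50 after the annotated start. Gsta4 and Gsta13 are named only. In Prdx1 (chr4:116685349-116685648, plus strand) and Mgst1 (chr6:138140277-138140576, plus strand) capitals mark a match to TGACNNNGC, a core of the antioxidant response element bound by NRF2, searched on both strands and read here on the reverse one. In Gsta1 (chr9:78230419-78230718, plus strand) and Gsta2 (chr9:78347096-78347395, minus strand), which have no match in this window, capitals mark the longest run of bases they share.
Prdx1: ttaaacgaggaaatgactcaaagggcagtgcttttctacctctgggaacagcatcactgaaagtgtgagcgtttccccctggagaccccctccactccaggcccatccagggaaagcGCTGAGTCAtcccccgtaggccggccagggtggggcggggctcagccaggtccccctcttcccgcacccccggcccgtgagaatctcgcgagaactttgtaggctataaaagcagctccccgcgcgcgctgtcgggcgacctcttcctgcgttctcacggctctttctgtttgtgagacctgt
Mgst1: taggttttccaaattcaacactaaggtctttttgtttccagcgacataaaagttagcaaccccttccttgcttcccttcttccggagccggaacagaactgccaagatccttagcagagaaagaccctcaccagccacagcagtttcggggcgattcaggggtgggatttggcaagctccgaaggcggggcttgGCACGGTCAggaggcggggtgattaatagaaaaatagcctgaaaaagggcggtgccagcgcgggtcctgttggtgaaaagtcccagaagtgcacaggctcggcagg
Gsta1: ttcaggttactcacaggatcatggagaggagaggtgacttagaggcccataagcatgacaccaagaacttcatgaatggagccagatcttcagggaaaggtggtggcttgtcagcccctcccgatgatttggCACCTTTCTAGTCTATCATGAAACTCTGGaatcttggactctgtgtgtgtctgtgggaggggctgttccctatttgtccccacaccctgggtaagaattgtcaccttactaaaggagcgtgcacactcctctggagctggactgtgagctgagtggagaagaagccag
Gsta2: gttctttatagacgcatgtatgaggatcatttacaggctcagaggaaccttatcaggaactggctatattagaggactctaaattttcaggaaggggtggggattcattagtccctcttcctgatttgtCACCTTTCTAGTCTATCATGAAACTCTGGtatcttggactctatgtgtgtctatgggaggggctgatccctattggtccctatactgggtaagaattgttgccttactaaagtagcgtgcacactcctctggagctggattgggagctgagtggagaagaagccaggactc
The match begins at -133 from the start in Prdx1 and at -56 in Mgst1. A further promoter entry of Mgst1 (chr6:138141337-138141636, plus strand) held no match and is not shown. The run shared by Gsta1 and Gsta2 is 29 bases long and begins at -118 in Gsta1 and -121 in Gsta2. Of the members with a promoter entry 5 of 35 (14.29%) held the motif, namely Gsta3, Gstm5, Gstm7, Prdx1 and Mgst1, against 13.99% of 27025 genes. Counted by promoter, 5 of 47 entries of members (10.64%) held it, against 12.39% of all 32851 promoters. A match of letters is a description and not a bound site.

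Enzymes that supply and recycle the reducing agents of these families were read from lists. None of their genes was called between the groups, and medians are over all libraries unless numbers are named. Of the 6 genes of glutathione synthesis and reduction 3 were below 0, with a median of 0.02. Gss, glutathione synthetase, was at -0.32 (standard error 0.26) on the log2 scale. Slc7a11, the cystine importer, had 24.2, 1.90 and 0.628 CPM in congested 1, 2 and 3, against 9.54, 0.512 and 0.177 CPM in IRI 1, 2 and 3. It was higher in the congested library of each number, as were 13.1% of all genes, but congested 3, IRI 2 and IRI 3 lay near the floor. Number 1 exceeded the other numbers by 4.29 on the log2 scale. The edgeR test of any difference among the 3 numbers gave Slc7a11 an adjusted p of 0.0014.

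Of the 12 tested genes of glutathione breakdown and export 6 were below 0, with a median of 0.004. Ggct, which acts on gamma-glutamyl peptides, had 14.0, 19.8 and 18.6 CPM in congested 1, 2 and 3, against 36.0, 35.8 and 20.8 CPM in IRI 1, 2 and 3. The groups did not overlap, as for 3.10% of all genes in this direction. The log2 difference was -0.82 (standard error 0.28, edgeR adjusted p = 0.935). Abcc4, an export pump, was at 0.49 (standard error 0.25). In edgeR's test of any difference among the 3 numbers Chac1, Anpep and Dpep1 differed (adjusted p = 0.0078, 0.0077 and 0.0433). Number 1 minus the other numbers was 2.32 for Chac1, -1.88 for Anpep and -1.24 for Dpep1 on the log2 scale.

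Among the 13 thioredoxin, glutaredoxin and sulfiredoxin genes, which recharge peroxiredoxins and protein thiols, 10 were below 0 with a median of -0.23, and within numbers 1, 2 and 3 the medians were -0.41, -0.24 and 0.13. Glrx5, the mitochondrial glutaredoxin of iron-sulphur cluster assembly, had 68.8, 71.6 and 79.4 CPM in congested 1, 2 and 3, against 173, 133 and 85.7 CPM in IRI 1, 2 and 3, again without overlap. Its log2 difference was -0.83 (standard error 0.28, edgeR adjusted p = 0.935), and that of Glrx2, also without overlap, was -0.30 (standard error 0.20). Srxn1, sulfiredoxin, differed among the 3 numbers (edgeR adjusted p = 0.0030), with number 1 above the others by 2.15 on the log2 scale. Txnrd1 and Glrx also differed (edgeR adjusted p = 0.0397 and 0.0456), with number 1 higher by 0.99 and 0.89. Of the superoxide dismutases and catalase 3 of 4 were below 0, with a median of -0.22. Sod1, the cytosolic dismutase, had 314, 394 and 419 CPM in congested 1, 2 and 3, against 773, 755 and 411 CPM in IRI 1, 2 and 3. Its log2 difference was -0.78 (standard error 0.31), with -1.30, -0.94 and 0.03 within numbers 1, 2 and 3. Sod2, the mitochondrial dismutase, was at -0.38 (standard error 0.25), with every congested library below every IRI library.

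Of the 9 genes of selenoprotein synthesis, which serve Gpx1 to Gpx4, 6 were below 0 with a median of -0.14. Pstk, the kinase that prepares the selenocysteine transfer RNA, was at -0.57 (standard error 0.26) and Sephs2, the selenium donor synthetase, at -0.38 (standard error 0.25) on the log2 scale. For neither gene did the groups overlap, though the highest congested and the lowest IRI library of Sephs2 both rounded to 279 CPM. Of the 4 tested lipid peroxidation partners of Gpx4 2 were below 0, with a median of 0.02. Acsl4, which loads polyunsaturated fatty acids into membranes, was at 0.68 (standard error 0.64), with 0.85, 0.97 and -0.25 within numbers 1, 2 and 3, and Alox12 at -0.20 (standard error 0.31). Of the 6 NRF2 regulators 2 were below 0, with a median of 0.08. Bach1, a repressor of NRF2 targets, was at 0.38 (standard error 0.26), with 0.68, 0.85 and -0.30 within numbers 1, 2 and 3, and Mafk at 0.17 (standard error 0.19). Acsl4 and Maff differed among the 3 numbers (edgeR adjusted p = 0.0255 and 0.0133). Number 1 exceeded the others by 1.63 for Acsl4 and 2.10 for Maff on the log2 scale.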

How the data were processed

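The authors deposited raw read counts per gene for 6 libraries, which are whole numbers. The submitters' processing notes name STAR 2.7.10a, featureCounts, Subread and the build GRCm38. The sources used here do not give the annotation, the strand setting or the treatment of multimapping reads. The 26971 features include 20 symbols on 2 features each, kept apart. Counts were filtered (at least 10 in at least 3 libraries) and tested with edgeR 4.0.16 in R 4.3.3 (TMM, robust quasi-likelihood F test, Benjamini-Hochberg over 14398 genes, threshold 0.05). Differences within equal replicate numbers used log2 CPM with a prior count of 2. Libraries of 1 group differed beyond counting noise. Alternatives were RLE factors, other filters, DESeq2 1.42.0, limma-voom (limma 3.58.1), the replicate block, a per-library trend in length and GC content removed (mgcv 1.9.3), and left-out libraries. Lengths came from GENCODE for GRCm38 and covered 95.6% of tested genes, and genes without a length were left uncorrected. Shared transcript runs of at least 50 bases were found with blastn 2.17.0. The fits were also run on simulated data with added changes, and how many of these they recovered is not given here.

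Members, lists and tests were chosen with earlier results of these data known. Every library's values are given for the member of each subfamily with the highest mean CPM, the one with the smallest p, and members that were called or did not overlap, and others were named after their values were seen. Of each list of related enzymes and regulators the 2 genes with the smallest p are named, and those that differed between the replicate numbers. A marker gene from these lists is not reported here. Deviations from group means correlated at 0.719, 0.342 and 0.427 between libraries of equal number, each above 0.1, so the numbers were taken to pair the libraries, although the labels do not say so. Crossed numbers 2 and 3 correlated at 0.395 and 0.242, so only number 1 is matched by the data. The block lowered edgeR's common coefficient of variation to 0.211, against 0.338 without it.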

Additional observations from a re-analysis of the deposited data

How the results depend on the processing

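No member was called between the groups under any alternative tried. Over all genes edgeR, limma-voom and DESeq2 called 0 under every alternative except DESeq2 with the replicate block, which called 10, none of them a member. With the replicate block in edgeR 0 genes were called, 28 members were below 0 and their median was -0.28, and 1015 genes against 288 had an unadjusted p under 0.05. The smallest adjusted p was 0.578 with the block. The block changed no other call. It made Gsto1 0.0024, Gsta1 0.10 and Gsta13 0.20 on the log2 scale, each of the other sign than without it, and DESeq2 with the replicate block gave 0.10 for Gsta1 and 0.21 for Gsta13. Gpx3 was -0.0082 with RLE factors and with DESeq2. Limma-voom gave 0.0058 for Gsto1, 0.080 for Gsta1 and 0.17 for Gsta13.

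Removal of the length and GC trend left 20 members below 0, and with the replicate block as well 18, with a median of -0.01. Without the block and with it the values of the other sign were 0.058 and 0.080 for Gstt1, 0.17 and 0.18 for Gpx8, 0.073 and 0.069 for Prdx3, 0.30 and 0.30 for Gsto1, 0.079 and 0.076 for Prdx4, 0.043 and 0.046 for Mgst3, 0.20 and 0.19 for Gstp2, 0.26 and 0.28 for Gsta2, 0.083 and 0.066 for Gstm1, 0.072 and 0.079 for Gstp3, and 0.25 and 0.46 for Gsta1. With the trend removed and the block included it was also so for Gpx7 (0.048) and Gsta13 (0.18). Members that differed between numbers were 11 with the trend removed, against 14.6% of all genes. They were 11 by DESeq2's likelihood ratio test, against 12.9% of all genes. With libraries left out they were 1 to 23, against 1.0% to 54.5% of all genes.

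Leaving out a library, or both libraries of a number (added after the data were seen, as was DESeq2 with the block), kept the sign of 17 of 35 members. The others ranged over -0.47 to 0.059 for Gstt1, -0.78 to 0.18 for Gstm5, -0.99 to 0.020 for Gpx6, -0.56 to 0.93 for Mgst1, -0.085 to 0.12 for Gpx3, -0.64 to 0.24 for Gpx8, -0.28 to 0.21 for Gsto1, -0.62 to 0.021 for Prdx4, -0.82 to 0.044 for Gpx7, -0.84 to 0.22 for Prdx1, -0.40 to 0.69 for Gsta4, -0.56 to 0.075 for Gstp2, -0.66 to 0.56 for Gsta2, -0.33 to 0.11 for Gstm1, -0.089 to 0.26 for Gstm6, -0.94 to 0.20 for Gsta5, -2.04 to 2.15 for Gsta1 and -1.95 to 2.42 for Gsta13. Subfamily medians that crossed 0 with libraries left out ranged over -0.80 to 0.62 for the alpha class and -0.28 to 0.21 for the omega class and -0.40 to 0.33 for the microsomal enzymes. The alpha median was also 0.020 with the replicate block, 0.013 with DESeq2 and the block, 0.017 with limma-voom, and 0.11 and 0.23 with the trend removed without and with the block. In those last settings it was 0.28 and 0.25 for the microsomal enzymes and 0.072 and 0.079 for the pi class. The cause was not tested.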
